A study of Mus musculus with 12 samples.

Results

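The 8 genes described here, *Olfr547*, *Olfr549*, *Olfr550*, *Olfr552*, *Olfr554*, *Olfr555*, *Olfr556* and *Olfr557*, are among the first α-class I odorant receptor (OR) genes beside the J element, an enhancer of the class I OR cluster on mouse chromosome 7. They were listed by name, as intact class I genes near the element on its long side, and not by a cut on their signals. Earlier results of these data were known when they were chosen. Each was measured by 1 probe set, so the 8 probe sets stand among 35556 on the array. Beside them are 120 other probe sets of intact class I genes of the cluster, some of which share a gene. A pair of intact class I genes on the minus strand, *Olfr551* and *Olfr553*, lie between them and are not members, and the next intact class I gene outward, *Olfr558*, lies just beyond.

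RNA of the main olfactory epithelium (MOE) was measured in 6 ΔJ mice, homozygous for a deletion of the J element, and in 6 wild-type littermates, 1 Affymetrix Mouse Gene 1.0 ST array per mouse, with no other treatment. All 12 mice were labelled C57BL/6 and were at postnatal day (P) 30, apart from 1 ΔJ and 2 wild-type mice at P33. There were 3 male and 3 female ΔJ mice, against 2 male and 4 female wild-type mice. The ΔJ mice came from 1 line, descended from a single founder made by CRISPR-Cas9 in B6C3F1 eggs and backcrossed to C57BL/6NCrSlc to the second generation, so traits of that line and of remaining donor chromosome near the cluster cannot be told apart from the deletion.

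Odorant receptors are G protein-coupled receptors on the cilia of olfactory sensory neurons (OSNs), and each mature OSN transcribes 1 allele of 1 receptor gene. Class I receptors, the family first found in fish, lie in a single cluster in mammals, mostly occupy the dorsal MOE and are known for responses to carboxylic acids and other polar odorants. Enhancers of OR clusters carry binding sites for homeodomain factors such as Lhx2 and for Ebf factors, and a gene's own promoter region usually carries such sites too. Because each OSN expresses 1 receptor, a lower signal in bulk MOE can come from fewer OSNs with that receptor or from less RNA in each, and the arrays cannot separate these. The study also counted OSNs by in situ hybridization. It reports *Olfr552* expression as nearly abolished in ΔJ mice, and no obvious difference in OSNs with *Olfr556*.

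By RefSeq (GRCm38.p6), the 8 genes lie on chromosome 7, all on the plus strand and annotated as protein coding, from 102534749, the first base of *Olfr547*, to 102699272, the last base of *Olfr557*. Their starts were 24.1 to 188 kb from the middle of the deletion. The RefSeq synonyms place *Olfr547* (MOR31-4) and *Olfr549* (MOR31-3) in the same MOR subfamily as the pseudogene *Olfr548-ps1* (MOR31-13) between them, whereas *Olfr550* (MOR16-1), *Olfr552* (MOR28-1), *Olfr554* (MOR25-1), *Olfr555* (MOR10-1), *Olfr556* (MOR41-1) and *Olfr557* (MOR18-3) each carry a different subfamily name. The study calls *Olfr556* atypical, since its OSNs lie outside the dorsal zone of most class I OSNs. The sources used here give no ligand for any of the 8 receptors.

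The 250 bases before the annotated start were found in RefSeq for 7 of the 8 genes, all but *Olfr554*. They were searched on both strands for 4 homeodomain-type hexamers: the palindrome TAATTA, its variant TAATTG, the related form TAATGA and the form ending in a second G, TAATGG. For 4 of the 7 genes the annotated start is a start codon, so the window precedes the coding sequence and not a mapped transcription start, and the window of *Olfr550* precedes a start inside the gene's annotated span. The windows of *Olfr552* and *Olfr549*, with the 2 lowest log2 fold changes of the 8, and of *Olfr547* and *Olfr556*, with the 2 nearest to 0, are shown to set letters beside fold change. They were read from chr7:102604106-102604355, chr7:102554036-102554285, chr7:102534499-102534748 and chr7:102669651-102669900 on the plus strand, and capitals mark a hexamer.
Olfr552: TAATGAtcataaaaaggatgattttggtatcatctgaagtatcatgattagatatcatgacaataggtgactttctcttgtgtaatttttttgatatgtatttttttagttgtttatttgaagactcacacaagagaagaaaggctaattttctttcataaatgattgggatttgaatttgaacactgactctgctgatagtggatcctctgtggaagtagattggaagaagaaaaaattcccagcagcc
Olfr549: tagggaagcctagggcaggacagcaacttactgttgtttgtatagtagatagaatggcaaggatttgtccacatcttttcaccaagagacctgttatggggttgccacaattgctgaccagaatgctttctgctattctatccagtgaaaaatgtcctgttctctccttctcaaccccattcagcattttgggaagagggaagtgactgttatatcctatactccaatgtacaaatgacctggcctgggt
Olfr547: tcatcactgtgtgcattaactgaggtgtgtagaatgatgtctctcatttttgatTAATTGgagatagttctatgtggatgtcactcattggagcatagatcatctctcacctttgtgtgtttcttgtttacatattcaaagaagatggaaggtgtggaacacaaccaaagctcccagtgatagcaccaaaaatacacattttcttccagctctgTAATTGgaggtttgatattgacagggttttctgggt
Olfr556: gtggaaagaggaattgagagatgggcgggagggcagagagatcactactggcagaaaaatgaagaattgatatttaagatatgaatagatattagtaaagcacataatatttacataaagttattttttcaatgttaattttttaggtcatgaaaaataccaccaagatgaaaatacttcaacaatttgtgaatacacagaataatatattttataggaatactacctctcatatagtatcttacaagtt

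At least 1 hexamer was present in 5 of the 7 windows, against 57.4% of 948 OR windows and 22.8% of all 32851 windows of that length. *Olfr547* held TAATTG at 196 and again at 36 bases before its start, *Olfr552* TAATGA at 250, *Olfr557* TAATGA at 183, *Olfr550* TAATGG at 67 and *Olfr555* CAATTA, the reverse complement of TAATTG, at 131 bases before its start. *Olfr549* and *Olfr556* held none of these letters in this window. Among receptors that fell, the letters were therefore present in some and absent in *Olfr549*, as their values below show. Of the receptors not called, *Olfr556* held none. *Olfr547* held them, but its signal was near gauges of background, so its letters cannot be set beside a response.

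Deletion of the J element went with lower signals for 6 of the 8 receptors. *Olfr552* fell most, to 15.7% of the wild-type signal. *Olfr549*, *Olfr557*, *Olfr555*, *Olfr550* and *Olfr554* fell to between 52.5% and 67.9%, and *Olfr547* and *Olfr556* had fold changes near 1 whose groups overlapped. A gene was called at an adjusted p under 0.05 (limma, Benjamini-Hochberg over all probe sets) with a fold change beyond 1.3. By this rule 0.129% of all probe sets were lower in ΔJ and 0.00562% higher. In the same 6 receptors every ΔJ mouse lay below every wild-type mouse, which held for 0.259% of all probe sets. It also held for 57 of the 120 other probe sets of intact class I genes. When only the 1213 OR probe sets were fitted and adjusted, the same 6 were called, and 6.18% of those probe sets were called lower. Levels below are log2 signals minus the 75th percentile of the same array, so that 0 is that percentile, and a fold change is ΔJ over wild type with 6 mice in each group.

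**Figure D1:**
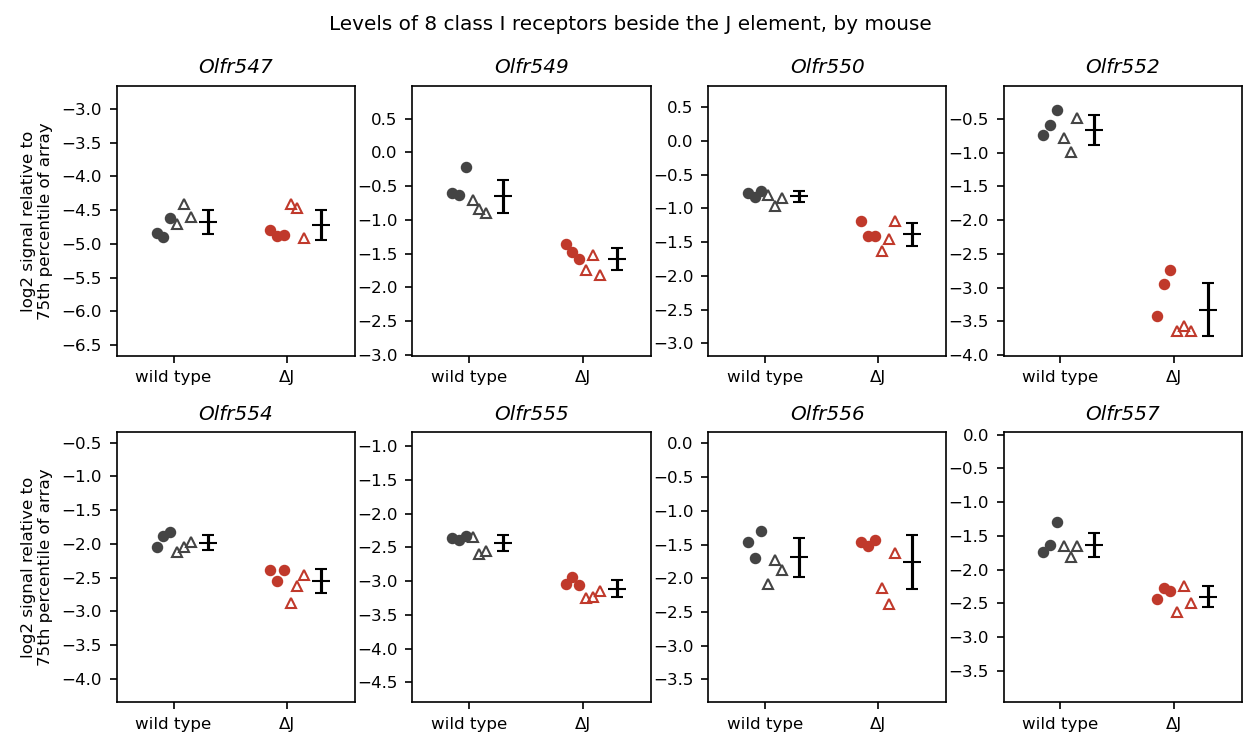
Log2 signal relative to the 75th percentile of the array (y axis; each panel spans 4 log2 units, with its own origin) for each of 12 mice, in wild-type and ΔJ mice. Filled circles are replicates 1 to 3 and open triangles replicates 4 to 6, and black bars are the mean and SD of 6 mice. The groups separate in 6 panels, most widely for Olfr552, and overlap for Olfr547 and Olfr556.

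*Olfr552*, an OR gene 93.7 kb from the deletion, ran from -0.99 through a median of -0.66 to -0.37 in the wild-type mice. In the ΔJ mice it ran from -3.65 through -3.50 to -2.73. The highest ΔJ mouse was thus 1.75 log2 units below the lowest wild-type mouse. Group means were -0.66 ± 0.22 and -3.33 ± 0.39 (SD, n = 6 each). The log2 fold change was -2.67 (SE 0.17, 95% interval -3.04 to -2.30), a 6.36-fold lower signal, with a limma adjusted p of 6.67e-06. In 4 of the 6 ΔJ mice the level fell inside the span that Y-linked *Kdm5d* had in females, which lack that gene (-4.23 to -3.05), and in all 6 it was above the ranges of *Uty* and *Eif2s3y*, so by the first of these gauges the remaining signal may be background and the fold an understatement. Among the 128 probe sets of intact class I genes of the cluster it had the lowest log2 fold change. The decrease was -2.67 in females and -2.66 in males, and it was called in all 24 alternative settings, with log2 fold changes from -2.87 to -2.47.

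*Olfr549*, 43.6 kb from the deletion, ran from -0.90 through -0.67 to -0.22 in wild-type mice and from -1.81 through -1.55 to -1.36 in ΔJ mice. Every ΔJ mouse was lower, with a gap of 0.46 between the groups. Its log2 fold change was -0.93 (SE 0.12, 95% interval -1.18 to -0.68), 52.5% of wild type, with an adjusted p of 0.00370 in limma. *Olfr557*, the farthest of the 8, ran from -1.82 through -1.64 to -1.30 in wild-type mice and from -2.63 through -2.38 to -2.24 in ΔJ mice. Those ranges were 0.42 apart, although the highest wild-type value, that of replicate 3, stood off from the other 5. Its log2 fold change of -0.77 (SE 0.10, 95% interval -0.98 to -0.56) amounted to 58.6% of wild type, with the same adjusted p of 0.00370.

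*Olfr555*, a receptor of lower array signal, ran from -2.60 through -2.37 to -2.34 in wild-type mice and from -3.26 through -3.11 to -2.94 in ΔJ mice. Both groups were narrow, with an SD of 0.12 in each, and lay 0.34 apart. As with *Olfr552*, 4 of its 6 ΔJ values lay within the female range of *Kdm5d*, so by that gauge its fold may be an understatement. The log2 fold change was -0.69 (SE 0.08, 95% interval -0.85 to -0.52), 62.2% of wild type, and its adjusted p of 0.00145 by limma was the second lowest of the 8.

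The smallest called decreases were those of *Olfr550* and *Olfr554*. *Olfr550* ran from -0.96 through -0.81 to -0.74 in wild-type mice and from -1.63 through -1.41 to -1.18 in ΔJ mice, a gap of 0.22. Its log2 fold change was -0.56 (SE 0.08, 95% interval -0.73 to -0.38), 67.9% of wild type, with a limma adjusted p of 0.0142. *Olfr554* ran from -2.12 through -2.01 to -1.83 in wild-type mice and from -2.87 through -2.51 to -2.39 in ΔJ mice, again with no overlap. Its log2 fold change was -0.57 (SE 0.09, 95% interval -0.76 to -0.37), 67.6% of wild type, with an adjusted p of 0.0267 in limma. Both calls were the least firm of the 6. That of *Olfr550* was lost with the replicate number as a block (adjusted p = 0.0520), without wild-type replicate 1 (0.0564) and without wild-type replicate 3 (0.0518). That of *Olfr554* was lost without ΔJ replicates 2, 5 or 6 (0.0726, 0.0762 and 0.0524) and without wild-type replicates 1, 2, 3, 5 or 6 (0.0715, 0.0871, 0.0819, 0.0684 and 0.0755). Across all alternatives the log2 fold change stayed between -0.64 and -0.51 for *Olfr550* and between -0.61 and -0.50 for *Olfr554*.

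*Olfr556*, the atypical member, was not called. It ran from -2.09 through -1.71 to -1.29 in wild-type mice and from -2.39 through -1.58 to -1.43 in ΔJ mice, and the ranges overlapped. ΔJ replicates 4 and 5 lay below every wild-type mouse, and wild-type replicate 3 above every ΔJ mouse. The log2 fold change was -0.07 (SE 0.18, limma adjusted p = 0.993), and its 95% interval of -0.47 to 0.33 spans 72.2% to 126% of wild type, so that a decrease of the size seen in *Olfr550* lay outside it and smaller changes in either direction lay within it. Its sign turned in the first array set and without ΔJ replicate 4, ΔJ replicate 5 or wild-type replicate 3, which are mice at the low and high ends of its range.

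*Olfr547*, the nearest to the deletion at 24.1 kb, was not called either. It ran from -4.89 through -4.66 to -4.40 in wild-type mice and from -4.92 through -4.83 to -4.40 in ΔJ mice, with nearly the same range in both. The log2 fold change was -0.04 (SE 0.11, adjusted p = 0.993 by limma), with a 95% interval of -0.29 to 0.20. As gauges of background, 3 Y-linked genes were read in the 7 females, which lack them, and the gauges differed: *Eif2s3y* ran from -5.30 to -4.73, *Uty* from -5.09 to -4.07 and *Kdm5d* from -4.23 to -3.05. All 12 values of *Olfr547* lay within the range of *Uty* and below that of *Kdm5d*, and 6 of the 12 lay above that of *Eif2s3y*. Its signal was thus near these gauges in both genotypes, background of its own probe set was not measured, and its log2 fold change near 0 cannot be read as a lack of response.

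**Figure D2:**
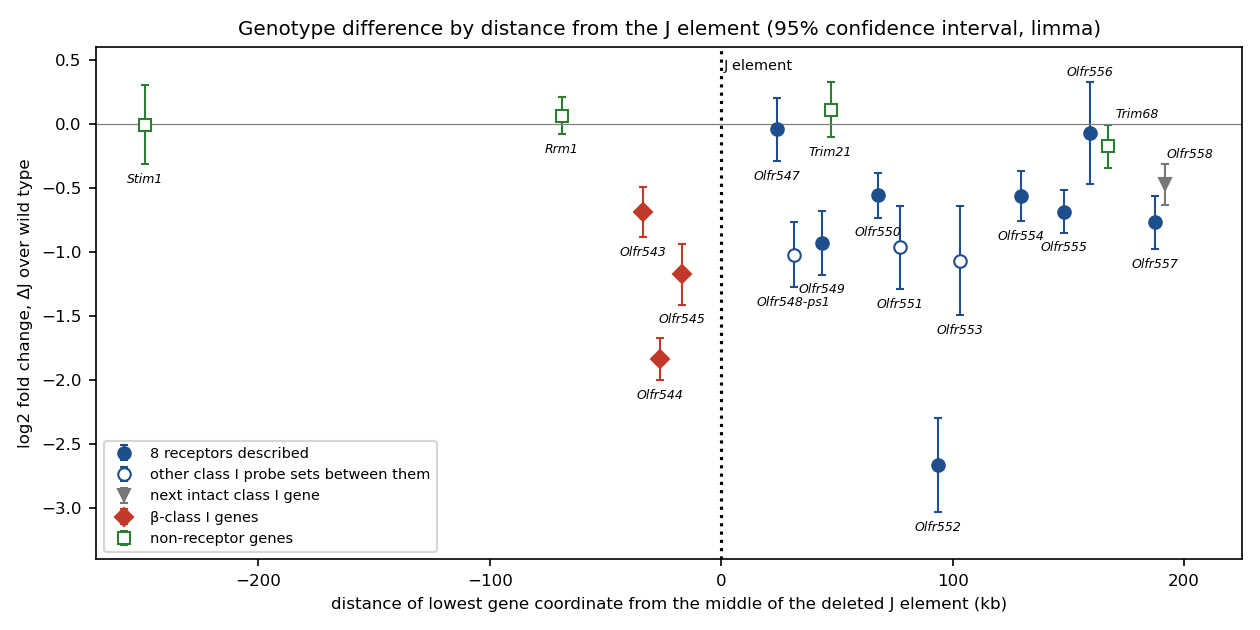
Log2 fold change (ΔJ over wild type, y axis) against the distance in kb of each gene's lowest annotated coordinate from the middle of the deletion (x axis). Points are limma estimates and bars their 95% intervals. The lowest point is Olfr552 at 93.7 kb, while Olfr547, nearer to the deletion, and Olfr556, farther from it, have intervals that span 0.

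Among the 8, with or without *Olfr547*, the size of the decrease did not follow the order along the chromosome. Over the whole cluster, the study reports a slightly graded effect of distance. From the deletion outward the log2 fold changes were -0.04 for *Olfr547*, -0.93 for *Olfr549*, -0.56 for *Olfr550*, -2.67 for *Olfr552*, -0.57 for *Olfr554*, -0.69 for *Olfr555*, -0.07 for *Olfr556* and -0.77 for *Olfr557*. The members on either side of *Olfr552* thus had the smallest called decreases. The minus-strand genes *Olfr551* and *Olfr553*, which are not members, lie nearer to it and had log2 fold changes of -0.97 and -1.07. The median over the 8 was -0.62, against -0.51 over the 120 other probe sets of intact class I genes and -0.03 over all probe sets. Of those 120, 31.7% were called lower. All 128 probe sets of intact class I genes, the 8 included, were ordered by log2 fold change from the lowest. *Olfr549* was number 32, *Olfr557* 40, *Olfr555* 46, *Olfr554* 59, *Olfr550* 62, *Olfr556* 112 and *Olfr547* 115. With its signal near the gauges of background, neither the log2 fold change nor the rank of *Olfr547* can be read as a lack of response.

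Whether 2 receptors responded differently was tested by the within-mouse difference of their levels, in all 28 pairs, with a two-sided exact permutation test over the 924 splits of the mice (smallest possible p 0.00216) and Benjamini-Hochberg adjustment over the pairs. Of these, 20 pairs passed. *Olfr552* differed from the 5 other receptors that fell and from *Olfr556*: its log2 fold change was 1.74 below that of *Olfr549*, the nearest, and its difference from *Olfr556* was -2.60, each with an adjusted exact p of 0.00673. The difference between *Olfr552* and *Olfr555* (-1.98) may be misstated, since 4 of the 6 ΔJ values of each lay within the female range of *Kdm5d*. *Olfr556* differed from all 6 receptors that fell. *Olfr547* also passed against those 6, but with its signal near the gauges of background these pairs follow from the decrease of the other gene and say nothing of its own response. Without *Olfr547*, 14 of 21 pairs passed. *Olfr549* fell more than *Olfr550*, *Olfr554* and *Olfr555*, by 0.37, 0.36 and 0.24. The last of these may overstate the difference in response, since 4 of the 6 ΔJ values of *Olfr555* lay within the female range of *Kdm5d*. The 8 pairs that did not pass were that of *Olfr547* and *Olfr556* (0.03, exact adjusted p = 0.970), that of *Olfr549* and *Olfr557* (0.16, exact adjusted p = 0.100), and all 6 pairs among *Olfr550*, *Olfr554*, *Olfr555* and *Olfr557*, whose differences were between 0.01 and 0.21. The order of these last 4 was therefore not resolved. With genotype exchanged only within replicate numbers, 64 exchanges allow no p below 0.0312, and 0 pairs passed after adjustment, 17 having an unadjusted exact p under 0.05.

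**Figure D3:**
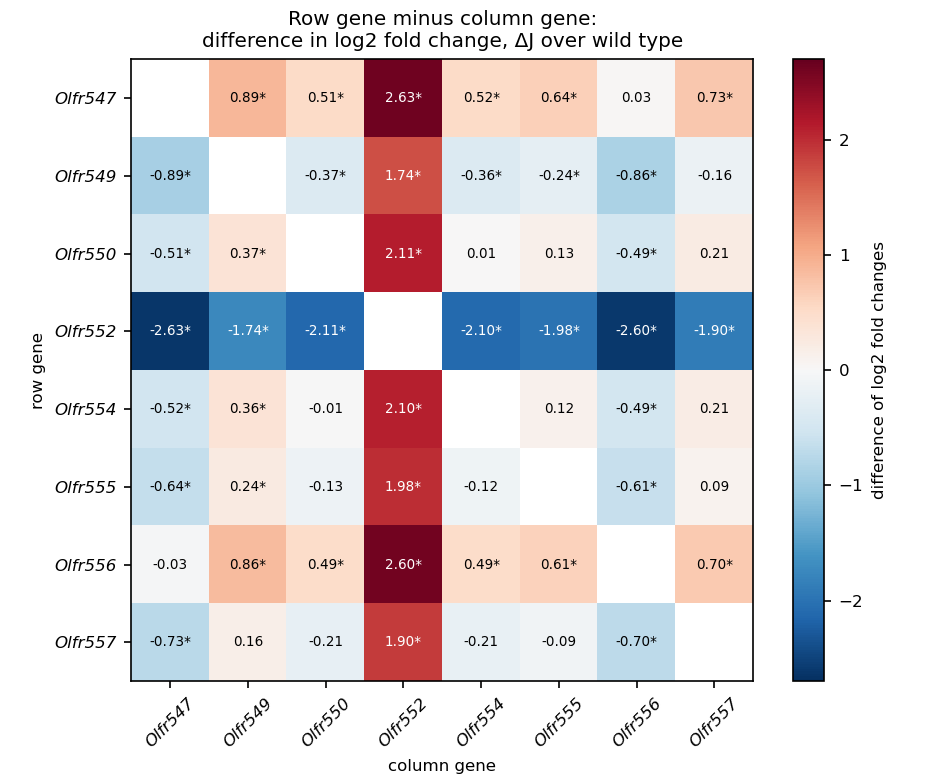
Difference in log2 fold change (row gene minus column gene; colour scale and number in each cell, log2 units) for all 28 pairs of the 8 receptors, with an asterisk where the adjusted exact permutation p was under 0.05. The row of Olfr552 holds the largest differences, and the cells among Olfr550, Olfr554, Olfr555 and Olfr557 carry no asterisk.

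The genes lying among the 8 gave a local frame. The pseudogene *Olfr548-ps1*, between the MOR31 genes *Olfr547* and *Olfr549*, fell with a log2 fold change of -1.02 (SE 0.12, limma adjusted p = 0.00197), close to the -0.93 of *Olfr549*. Whether probes of these related genes share sequence was not tested. On the minus strand, *Olfr551* fell by 0.97 on the log2 scale (SE 0.15, adjusted p = 0.0245 in limma). *Olfr553*, a MOR25 gene as *Olfr554* is, had -1.07 (SE 0.20) and no overlap of the groups, but its limma adjusted p of 0.0769 did not pass, while fitted and adjusted over the OR probe sets alone it was called (adjusted p = 0.00143). The next intact class I gene outward, *Olfr558*, 192 kb from the deletion and not among the 8, is a MOR18 gene as *Olfr557* is and fell to 72.0% of wild type (log2 fold change -0.47, SE 0.07, limma adjusted p = 0.0258), against 58.6% for *Olfr557*. On the other side of the deletion, the log2 fold changes of the 3 β-class I genes were -0.69 for *Olfr543*, -1.84 for *Olfr544* and -1.17 for *Olfr545*, each nearer to 0 than that of *Olfr552*. These differences from *Olfr552* were not tested. All ΔJ values of *Olfr544*, from -3.55 to -3.27, lay within the female range of *Kdm5d* (-4.23 to -3.05). By that gauge the fold of *Olfr544* may be an understatement, as may that of *Olfr552*.

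Around the element, 4 genes that encode no OR were examined. *Trim21*, a ubiquitin ligase gene between *Olfr549* and *Olfr550*, had a log2 fold change of 0.11. *Trim68*, between *Olfr556* and *Olfr557*, had -0.18, with an unadjusted limma p of 0.0435. *Rrm1*, a subunit of ribonucleotide reductase, had 0.06 and *Stim1*, the calcium sensor of the endoplasmic reticulum, -0.01. None of the 4 was called, with limma adjusted p of 0.993 to 0.998.

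No transcript that marks the OSNs themselves was called. Of 15 genes of OSN signalling, among them *Omp*, the olfactory G protein gene *Gnal* and the cyclic nucleotide channel gene *Cnga2*, 0 were called by limma and 0 had an unadjusted p under 0.05, with log2 fold changes from -0.15 to 0.10. Of 15 genes of receptor choice, such as *Lhx2*, *Ldb1* and *Ebf1*, likewise 0 were called and 0 had an unadjusted p under 0.05 (range -0.13 to 0.11). Markers of immature OSNs, basal, sustentacular, gland and immune cells and of the dorsal and ventral zones also gave 0 calls, with list medians between -0.03 and 0.10. The 1 measured blood marker had a log2 fold change of 0.30 and was not called.

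The 12 arrays fell into 2 sets that the replicate numbers follow: the SD over probe sets was 2.07 to 2.13 in replicates 1 to 3 and 2.21 to 2.23 in replicates 4 to 6. Each set held 3 mice of each genotype, so genotype can be read within each. *Olfr552* had -2.47 in the first set and -2.87 in the second, *Olfr549* -0.99 and -0.87, *Olfr557* -0.79 and -0.75, *Olfr555* -0.65 and -0.72, *Olfr554* -0.52 and -0.61, *Olfr550* -0.56 and -0.56, *Olfr556* 0.01 and -0.15, and *Olfr547* -0.06 and -0.02. The 6 decreases thus had the same sign in both sets, although with 3 mice per genotype only *Olfr552* was called by limma within either set. Neither the labels nor the methods say what the sets stand for, and array set was not tested as a cause of any difference.

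Between the sets, the level of *Olfr556* itself was 0.49 log2 units lower in the second (limma adjusted p = 0.00685 with genotype in the model), the largest shift among the 8. Shifts past an adjusted p of 0.05 were also found for *Olfr549* (-0.27), *Olfr552* (-0.39) and *Olfr555* (-0.17), and for 14998 of the 35556 probe sets. Among mice, wild-type replicate 3 had the highest wild-type level for 7 of the 8 receptors, all but *Olfr547*, and ΔJ replicate 4 had the lowest ΔJ level for 4. Female and male mice gave decreases of the same sign for the 6 receptors that fell: -0.90 and -1.02 for *Olfr549*, -0.69 and -0.41 for *Olfr550*, -0.62 and -0.53 for *Olfr554*, -0.78 and -0.57 for *Olfr555*, and -0.73 and -0.84 for *Olfr557*. None of the 8 interactions of sex and genotype passed in limma (adjusted p = 1.00 for each).

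Levels of *Olfr552* over the 12 mice ran most like those of the class I genes *Olfr607* (Pearson r = 0.979), *Olfr569* (0.977) and *Olfr545* (0.975) among 21781 probe sets of a single gene, points that share the genotype difference. Those of *Olfr556* ran most like *Cdk14* (0.974), *Tox* (0.967) and *Clvs1* (0.966), none of them an OR gene. Their log2 fold changes were -0.02, -0.04 and -0.10. Within the array sets the likeness of *Olfr556* to *Cdk14* was 0.905 and 0.940, and to *Clvs1* 0.711 and 0.949. These genes were picked as the most alike in the same 12 mice, so the values within the sets are not a separate test.

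**Figure D4:**
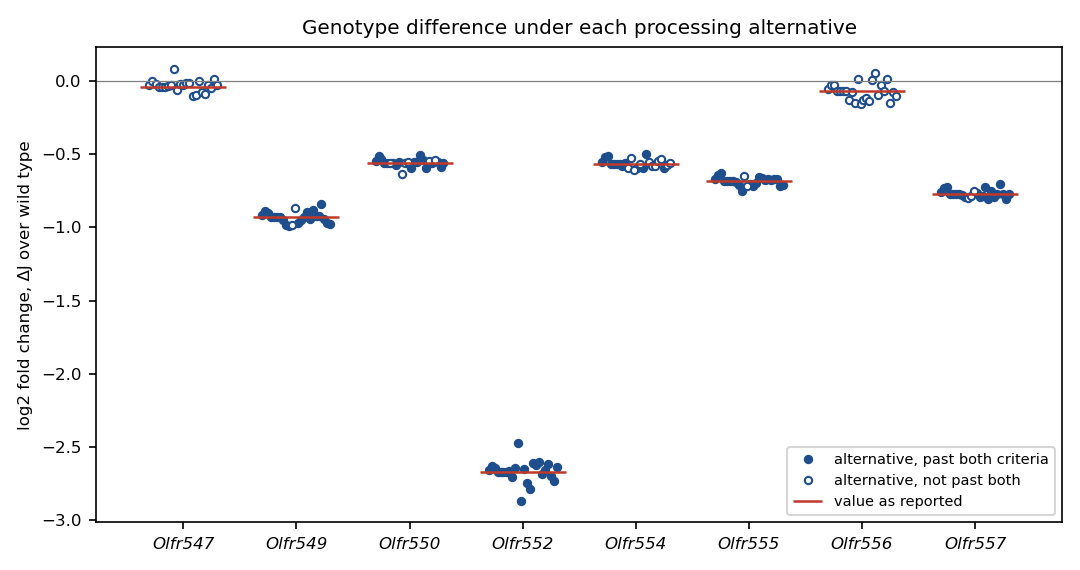
Log2 fold change (ΔJ over wild type, y axis) of each receptor under each processing alternative. Filled points passed both criteria, open points did not, and red lines are the values as reported. Points of Olfr552 are all filled, between -2.87 and -2.47, and those of Olfr547 and Olfr556 lie on both sides of 0.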

How the data were processed

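The values deposited by the authors are log2 signals, 35556 per array, from 12 arrays. They were made with Affymetrix Expression Console, according to the submitters' processing notes (version and settings: not given in the sources used here). Names came from the platform annotation (21789 probe sets with a single symbol), and the study's annotation was used only for identity, position and class. The 75th percentile of each array was subtracted, as in the study's methods. Genotype was fitted with limma 3.58.1 (R 4.3.3, lmFit and eBayes) over all probe sets, with Benjamini-Hochberg adjustment over them, and the methods' 1213 OR probe sets are an alternative. The receptors, lists, named genes and tests were chosen with earlier results of these data known. Named beside the 8 were the genes among and around them, lists of OSN, receptor choice and cell type marker genes, and the 3 genes most like *Olfr552* and *Olfr556*. Steps were tested on simulated data. The number of arrays limits the precision.

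Same-numbered ΔJ and wild-type mice deviated together from their genotype means (correlations 0.365, 0.294, 0.419, 0.441, 0.185 and 0.385 for replicates 1 to 6). Mice with the same number are always in the same array set, so these correlations cannot show that the numbers pair the mice. The main fit and the main test of pairs of receptors did not use the numbers, which served as a block only in an alternative. Only replicate 4 correlated best with its own number, the numbers also follow the 2 array sets, and the labels do not say what a number shares. No 2 arrays held identical values.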

Additional observations from a re-analysis of the deposited data

Results flagged for a closer look

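In the wild-type group, *Olfr557* of replicate 3 was at -1.30, far from the other 5 mice: the gap to the nearest of them was 0.657 of the range of the group. This was the only such value among 16 groups examined (8 receptors in each genotype). Chance alone gives such a value in about 1 in 20 groups, so 1 among 16 is not unusual. Without this mouse *Olfr557* was still called lower in ΔJ.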

How the results depend on the processing

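Of the 6 decreases, 3 were called in P30 mice only, 1 in the first array set alone, 1 in the second alone, and 4 to 6 with 1 mouse left out (4 without wild-type replicate 1 and 4 without wild-type replicate 3). With replicate numbers as a block, 5 were called, *Olfr550* being lost (adjusted p = 0.0520). In P30 mice the calls lost were *Olfr550*, *Olfr554* and *Olfr557* (adjusted p of 0.0538, 0.332 and 0.0566), and these settings hold fewer mice. The other shifts, the quantile normalization, the OR probe sets alone, the low-signal filter, and array set, sex or age in the model left the count at 6. No decrease turned sign. The sign of *Olfr547* turned in P30 mice (0.0836) and without wild-type replicate 5 (0.0118), and that of *Olfr556* in the first array set (0.0145) and without ΔJ replicate 4 (0.00620), ΔJ replicate 5 (0.0545) or wild-type replicate 3 (0.00931). With 1 mouse left out they ran from -0.107 to 0.0118 and from -0.15 to 0.0545. The filter on low signals removed *Olfr547*. Of 28 pairs of receptors, 20 passed, 15 in P30 mice, 18 after quantile normalization and 18 to 22 with 1 mouse left out. When genotype was exchanged within replicate numbers, 0 passed, and no p below 0.0312 was possible there.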

Other observations

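*Ncam2*, a marker of ventral OSNs, was set beside the 8 receptors after its values were seen, as deviations from the genotype means over 12 mice (8 relations, permutation tests). The permutations moved values freely across the 2 array sets, between which *Olfr556* and *Olfr555* shifted. The p-values therefore do not measure a relation within a set. *Olfr556* had r = 0.81 (p = 0.00154, adjusted p = 0.0123) and rho = 0.748 (p = 0.00654, adjusted p = 0.0523), with r = 0.712 without the 2 mice farthest from the median. Within the array sets r was -0.01 and 0.72, so the relation did not hold in the first. *Olfr555* had r = 0.665 (permutation p = 0.0135, adjusted p = 0.0359) and rho = 0.545 (p = 0.0700, adjusted p = 0.187), with -0.05 and 0.32 within the sets. *Olfr547*, whose signal lay near background, passed by r (-0.70, adjusted permutation p = 0.0359) and not by rho (-0.692, adjusted p = 0.0597), and nothing is read from it.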
